A study of Mus musculus with 9 samples.

Results

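The genes described here are 46 components of the DNA replication machinery and of deoxynucleotide supply, chosen by name from a list of symbols. All 46 were found among the 55536 gene identifiers of the count table (mouse build GRCm38), and all 46 passed the filter on low counts. By role they form 9 subgroups: origin licensing (4 genes), the MCM helicase (6), helicase activation (6), polymerases and primase (9), clamp and clamp loaders (8), single-strand binding and Okazaki fragments (4), chromatin assembly (2), nucleotide synthesis (5) and fork protection (2). Their mRNA was measured by RNA sequencing of CD4+ T cells taken from the spleens of male mice, 6 to 12 weeks old and of WT genotype in every group. The strain was not given in the sources used here. All cells received anti-CD3/anti-CD28 beads, which mimic antigen and costimulation, and the growth factor IL-2 (murine, 5 ng/mL). One set of cultures was also given exosomes from BMDM of ApoE-deficient mice (EKO-BMDM-exo, here EKO_exo). Another was given the same kind of exosomes from wild-type mice (WT-BMDM-exo, here WT_exo). Both were given at 2e+09 particles/mL, and the control set received PBS. BMDM is read here as bone marrow-derived macrophages, which the labels do not spell out. Treatment lasted 18 h; the treatment protocol has it given during stimulation and the series text after it, so the time from stimulation to harvest is uncertain. There were 3 libraries per group, numbered by replicate (PBS 1, PBS 2, PBS 3). The lack of apolipoprotein E, a lipid carrier, was in the mice that gave the exosomes and not in the T cells.

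A T cell that is activated through its antigen receptor leaves quiescence and enters S phase, in which the genome is copied. Origins are first licensed when ORC, CDC6 and CDT1 load the ring of MCM proteins onto DNA. CDC45 and the GINS complex then join the ring to form the active helicase. Polymerase alpha with primase starts each strand, and polymerases delta and epsilon extend it, held to the template by the PCNA clamp. Ribonucleotide reductase, thymidylate synthase and thymidine kinase supply the deoxynucleotides. Many of these genes are known targets of E2F transcription factors, which RB proteins hold in check until cells pass from G1 to S phase.

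Total counts per library ranged from 25792975 to 32971791. The 3 EKO_exo libraries had the fewest genes with a count (19038 to 19518, against 19989 to 20568 in the other libraries), and each stood apart from the other 8 on a principal component: EKO_exo 3 on the first, EKO_exo 1 on the second and EKO_exo 2 on the third. The third component also placed the PBS libraries (18.2 to 25.3) above all exosome libraries (-36.4 to 5.4). All 10 markers of CD4+ T cells were expressed, with a summed level of 4353 to 4474 CPM (counts relative to the scaled library size) in PBS, 4360 to 4477 CPM in WT_exo and 4576 to 4638 CPM in EKO_exo. Of these, Cd3e, Cd5 and Cd247 rose in EKO_exo and none was called in WT_exo; Cd247 kept its call with any single library left out, while Cd3e did so only without EKO_exo 2 and Cd5 only without PBS 3. Summed levels of 2 CD8 T cell markers were 11.2 to 12.3 CPM in PBS, 8.31 to 10.2 CPM in WT_exo and 9.57 to 10.4 CPM in EKO_exo, with neither gene called. Nearly all of this was Cd8b1 (mean 9.74 CPM over all libraries). Cd8b1 lay below every PBS library in both exosome groups, as 11.6% of all genes tested did in WT_exo and 10.6% in EKO_exo. Cd8a (mean 0.553 CPM) overlapped with PBS in both. The summed level of 6 B cell markers was 422 to 453, 425 to 471 and 477 to 489 CPM in PBS, WT_exo and EKO_exo, nearly all of it Ighm, which rose in EKO_exo, a call that did not hold without PBS 1 or PBS 3. That of 7 macrophage and monocyte markers was 19.2 to 29.8, 22.6 to 29.9 and 24.4 to 29.6 CPM, with Csf1r called higher in EKO_exo (not without EKO_exo 1, EKO_exo 2, PBS 1, PBS 2, PBS 3, WT_exo 1 or WT_exo 2 (adjusted p up to 0.194)). Adgre1 and Mrc1 were too low to be tested, with counts of at most 3 and 12 in any library. Both were at 0 in all 3 EKO_exo libraries and also in some PBS and WT_exo libraries. Dendritic cell markers summed to 1.88 to 5.55 CPM over the 9 libraries, NK cell markers to at most 0.739 CPM, neutrophil markers to at most 1.02 CPM with S100a9 called lower in WT_exo (not without any single PBS or WT_exo library), and erythroid markers had 0 counts. The part of these cells in the results was not tested. In bulk samples, fewer cells of a type and less of an mRNA per cell cannot be told apart.

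All 46 genes had a lower fitted level after either kind of exosome than after PBS. In EKO_exo, 35 of the 46 fell and 0 rose (edgeR quasi-likelihood test, Benjamini-Hochberg adjusted p under 0.05 over 14684 genes). Of all genes tested there, 2.87% fell and 2.21% rose, 5.08% in all. In WT_exo, 38 of 46 fell and 0 rose, where 3.14% of all genes tested fell and 1.83% rose, 4.97% in all. At an unadjusted p under 0.05, 46 and 44 of the 46 genes passed, against 17.1% and 15.8% of all genes tested. The median log2 fold change of the 46 was -0.26 in EKO_exo and -0.27 in WT_exo, so that CPM fell by 16.4% and fell by 16.9%, and the median over all genes tested was 0.00 in both comparisons. Estimates ran from -0.67 (Pclaf) to -0.10 (Fen1) in EKO_exo and from -0.84 (Dscc1) to -0.06 (Rpa2) in WT_exo. These comparisons share the PBS libraries and so are not independent. The share of all genes tested that fell in both was not counted, and can be at most 2.87%. Of the 46 genes, 31 were called lower in both, 4 in EKO_exo but not WT_exo (Orc1, Gins3, Prim1 and Rfc4), 7 in WT_exo but not EKO_exo (Gins4, Pola2, Pold1, Pold2, Pcna, Rfc2 and Fen1) and 4 in neither (Gins1, Pole2, Rfc3 and Rpa2). None of them was called between the exosome groups.

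The shift was seen in each exosome library. The median difference of the 46 genes from the PBS mean, on the log2(CPM + 0.5) scale, was 0.02, 0.02 and -0.03 in PBS 1, 2 and 3. It was -0.25, -0.23 and -0.27 in WT_exo and -0.32, -0.22 and -0.23 in EKO_exo. All 46 genes lay below the PBS mean in each of the 6 exosome libraries, while 17, 11 and 41 did in PBS 1, 2 and 3. The same PBS mean served for all 6, and no such count was made over all genes tested. In CPM, every EKO_exo library lay below every PBS library for 40 of 46 genes, where 10.6% of all genes tested did so and 9.94% lay above. Every WT_exo library did for 43 of 46, where 11.6% of all genes tested did so and 10.6% lay above. With EKO_exo 1 and EKO_exo 3 both left out, 18 of 46 genes were called lower in EKO_exo and their median was -0.22. With any single library left out, 25 to 34 genes were called lower in EKO_exo and 29 to 41 in WT_exo, and all 46 estimates stayed negative. Where a call is said not to hold without certain libraries, each was left out alone.

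**Figure D1:**
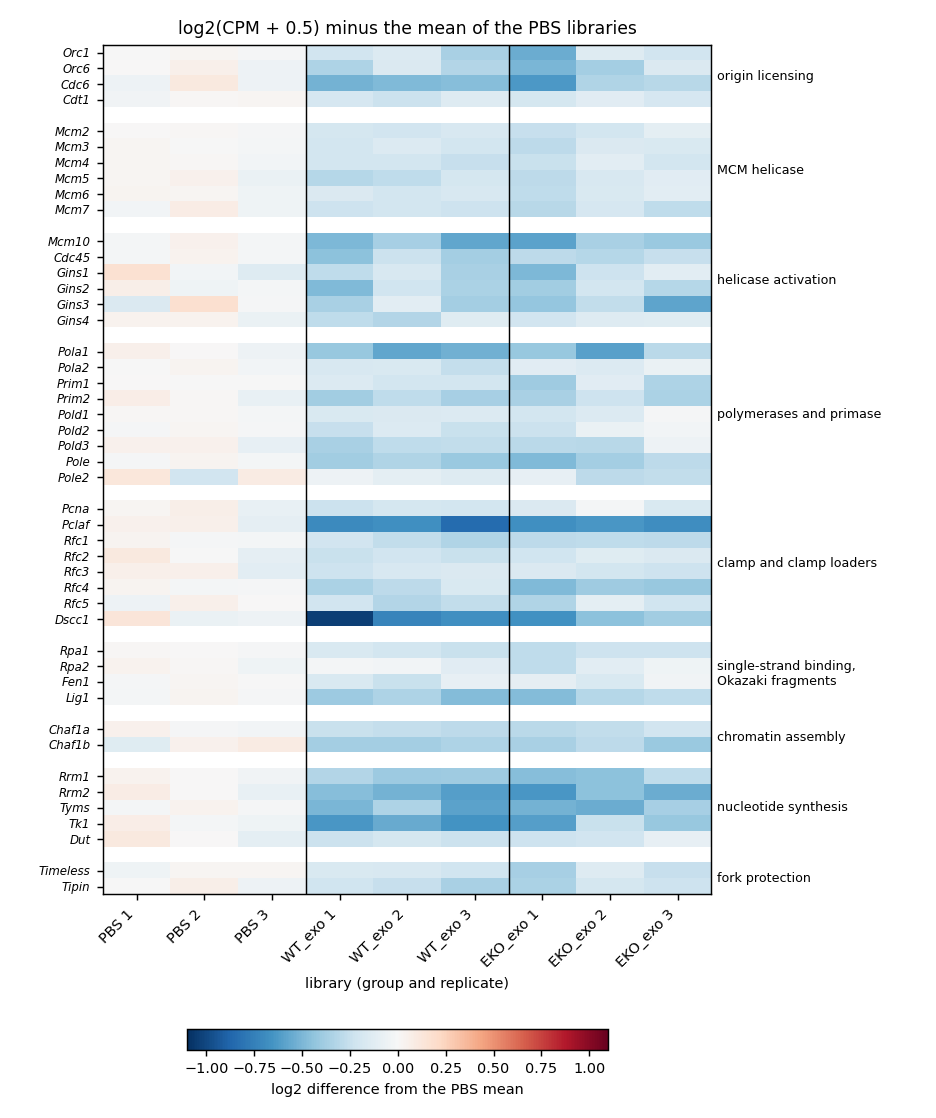
Difference of each gene's log2(CPM + 0.5) from the mean of the 3 PBS libraries, with the 46 genes in rows by subgroup and the 9 libraries in columns; blue is lower and red is higher. All 46 genes are below the PBS mean in the 6 exosome libraries.

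**Figure D2:**
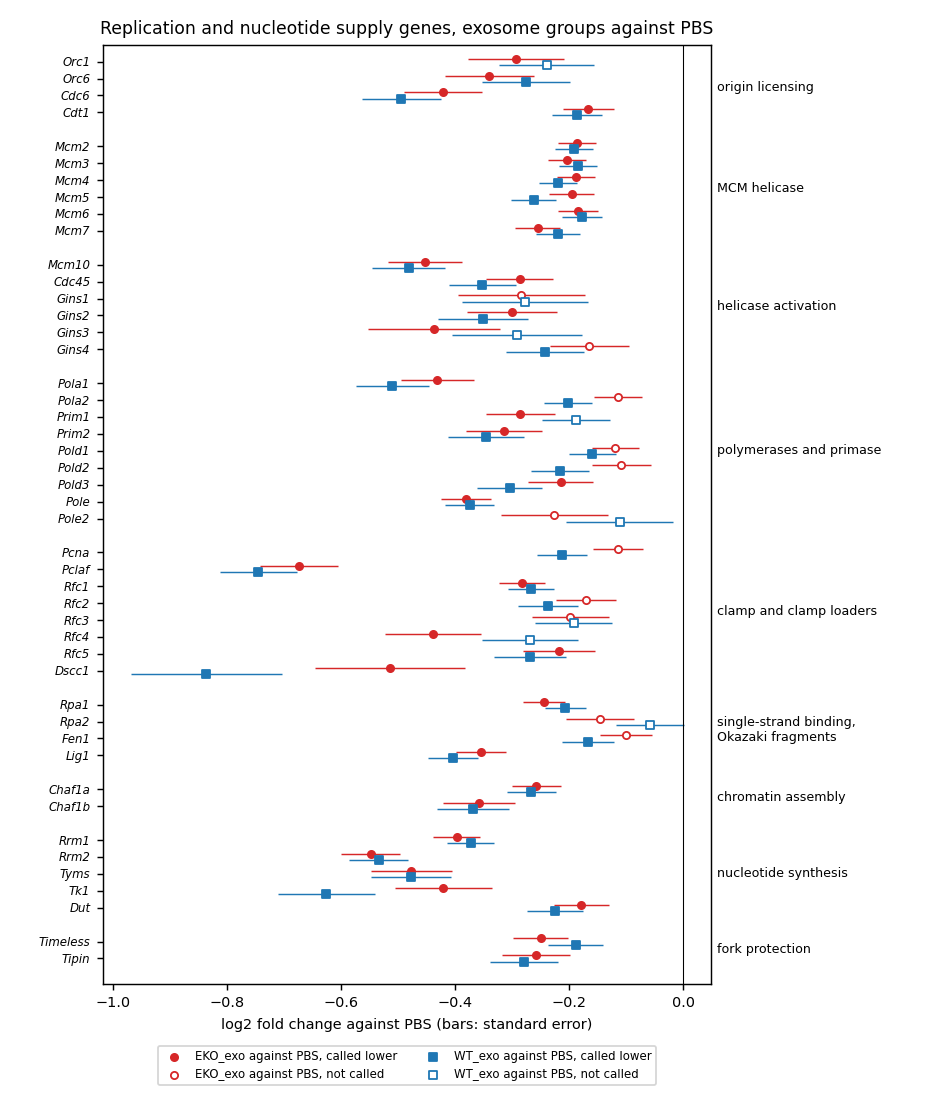
Log2 fold change against PBS (x axis) of the 46 genes in EKO_exo (red circles) and WT_exo (blue squares), with standard errors as bars; filled symbols are genes called lower. Every estimate lies left of 0, from -0.84 to -0.06.

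Since the 46 genes moved together, their promoters were searched for letters bound by known cell cycle regulators. A window of 250 bases before to 50 bases after an annotated start was available from RefSeq (GRCm38.p6) for 37 of the 46 genes. The E2F letters searched were TTTCCCGC, TTTCGCGC, TTTGCCGC and TTTGGCGC on both strands. They were present for 15 of 37 genes (40.5%), against 3.29% of 17491 protein-coding genes and 2.6% of all 27025 genes with such windows. CCAAT, the box bound by NF-Y, was present on either strand for 22 of 37 genes (59.5%, against 42.3% of protein-coding genes). TTTGAA, the CHR element of many mitotic genes, was present for 5 of 37 (13.5%, against 18.5%). Of the 21 E2F matches, 1 overlapped with a CCAAT or CHR match and 4 overlapped with another E2F match, in the windows of Mcm5 and Mcm6. Of genes with E2F letters, 12 of 15 were called lower in EKO_exo (median -0.23 log2), and of genes without them 17 of 22 (median -0.27). In WT_exo these were 11 of 15 (-0.24) and 19 of 22 (-0.27). A match describes letters and is not a binding site, and no match says nothing about the factor. The windows printed here, 5′ to 3′ with E2F letters in capitals, are those of Pclaf, which had the largest fall in EKO_exo, of the ring subunits with overlapping matches (Mcm6 and Mcm5), and of Cdc6 and Pola1, which led their subgroups. Only windows with E2F letters are printed. Of the other genes that led their subgroups in EKO_exo, Mcm7 and Lig1 had such letters. Rrm2, Mcm10 and Chaf1b did not, and Tipin had no window.
Pclaf, chr9:65890073-65890372, plus strand: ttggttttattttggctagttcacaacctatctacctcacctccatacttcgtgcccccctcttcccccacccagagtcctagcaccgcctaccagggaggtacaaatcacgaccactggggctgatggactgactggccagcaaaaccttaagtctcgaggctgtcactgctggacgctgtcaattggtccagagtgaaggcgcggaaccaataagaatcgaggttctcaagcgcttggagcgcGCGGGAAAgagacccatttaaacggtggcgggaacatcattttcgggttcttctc
Mcm6, chr1:128359656-128359955, minus strand: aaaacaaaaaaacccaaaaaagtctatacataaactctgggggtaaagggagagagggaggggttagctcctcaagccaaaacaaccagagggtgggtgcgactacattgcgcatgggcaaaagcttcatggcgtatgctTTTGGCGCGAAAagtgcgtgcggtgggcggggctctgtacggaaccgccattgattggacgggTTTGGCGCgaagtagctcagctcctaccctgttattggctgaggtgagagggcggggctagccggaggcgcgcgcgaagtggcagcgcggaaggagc
Mcm5, chr8:75109259-75109558, plus strand: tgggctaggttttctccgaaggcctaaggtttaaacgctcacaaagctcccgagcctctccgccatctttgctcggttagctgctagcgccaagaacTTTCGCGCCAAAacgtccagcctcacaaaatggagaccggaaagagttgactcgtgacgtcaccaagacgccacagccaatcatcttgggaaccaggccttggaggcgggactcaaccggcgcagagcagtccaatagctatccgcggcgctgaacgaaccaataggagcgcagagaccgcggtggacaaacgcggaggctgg
Cdc6, chr11:98907901-98908200, plus strand: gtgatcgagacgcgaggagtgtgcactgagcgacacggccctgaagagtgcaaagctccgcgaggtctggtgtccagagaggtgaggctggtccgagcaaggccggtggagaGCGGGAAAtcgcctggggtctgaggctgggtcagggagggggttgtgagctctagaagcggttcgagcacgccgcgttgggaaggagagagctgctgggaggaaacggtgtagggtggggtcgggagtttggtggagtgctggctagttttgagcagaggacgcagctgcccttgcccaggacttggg
Pola1, chrX:93632106-93632405, minus strand: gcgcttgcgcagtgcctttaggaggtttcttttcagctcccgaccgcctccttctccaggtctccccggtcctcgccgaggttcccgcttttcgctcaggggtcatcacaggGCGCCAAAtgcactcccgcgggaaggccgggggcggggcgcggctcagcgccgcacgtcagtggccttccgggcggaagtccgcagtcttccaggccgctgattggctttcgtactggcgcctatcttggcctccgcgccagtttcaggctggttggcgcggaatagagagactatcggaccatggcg

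**Figure D3:**
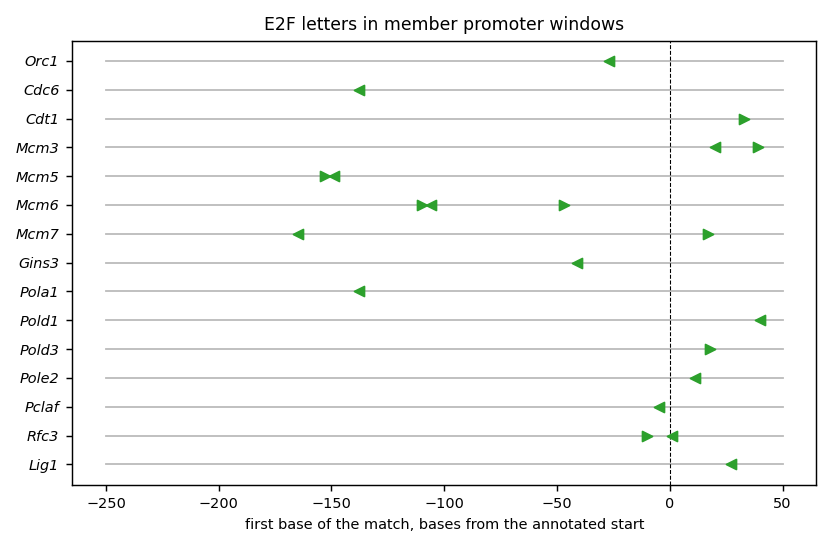
Position of each E2F match in the windows of the 15 genes that have one, in bases from the annotated start, with arrows for the strand of the match. The 21 matches begin between 165 bases before the start and base 40 of the transcript, and Mcm6 has 3.

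Origin licensing genes were lower in both exosome groups: all 4 were called in EKO_exo (median log2 fold change -0.32) and 3 of 4 in WT_exo (median -0.26). Cdc6 encodes the ATPase that loads MCM rings onto origins (ENSMUSG00000017499, chromosome 11, 98907801 to 98923940). Its window above has E2F letters 138 bases before the RefSeq start used for that window. The window lies wholly inside the gene span given here, which begins further upstream. Cdc6 was at 97.5, 109 and 97.7 CPM in PBS, 70.6, 72.4 and 73.1 CPM in WT_exo, and 65.1, 80.6 and 81.7 CPM in EKO_exo. All exosome libraries lay below all PBS libraries. The log2 fold change was -0.42 ± 0.069 (SE) in EKO_exo and -0.49 ± 0.069 in WT_exo (edgeR adjusted p = 0.000259 and 2.74e-05). Cdt1, the partner of CDC6 in loading, was at 149.8, 155 and 156 CPM in PBS, 135, 130.5 and 139 CPM in WT_exo, and 134, 141 and 135 CPM in EKO_exo. It too was separated from PBS, by a small shift of -0.17 ± 0.044 in EKO_exo and -0.19 ± 0.044 in WT_exo. The Cdt1 call in EKO_exo did not hold without EKO_exo 1, EKO_exo 3, PBS 2 or PBS 3 (adjusted p up to 0.108), nor that in WT_exo without PBS 2 or WT_exo 2 (adjusted p up to 0.0898). Orc1 and Orc6 encode subunits of the origin recognition complex. Orc6 was at -0.34 ± 0.078 and -0.28 ± 0.077 in EKO_exo and WT_exo, calls that did not hold without EKO_exo 1 or PBS 2 (adjusted p up to 0.0687) and without PBS 1, PBS 2, WT_exo 1 or WT_exo 3 (adjusted p up to 0.191). Orc1 was called in EKO_exo (-0.29 ± 0.084), not holding without EKO_exo 1, PBS 1, PBS 2, PBS 3 or WT_exo 1 (adjusted p up to 0.247), and was not called in WT_exo (-0.24 ± 0.083, adjusted p = 0.108).

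The MCM genes, which encode the subunits of the hexameric ring, moved by similar amounts. All 6 were called lower in both comparisons, with log2 fold changes between -0.26 and -0.18 in each. Mcm6, the most abundant in CPM (ENSMUSG00000026355, chromosome 1, 128331590 to 128359664), was at 697, 696 and 661 CPM in PBS, 614, 596 and 607 CPM in WT_exo, and 565, 611 and 632 CPM in EKO_exo. Its log2 fold change was -0.18 ± 0.035 in EKO_exo and -0.18 ± 0.035 in WT_exo. Mcm7, with the largest estimate of the ring genes in EKO_exo (ENSMUSG00000029730, chromosome 5, 138164583 to 138172422), was at 342, 369.7 and 339 CPM in PBS, 299, 305 and 299 CPM in WT_exo, and 284, 309 and 288 CPM in EKO_exo. It was at -0.26 ± 0.039 in EKO_exo and -0.22 ± 0.039 in WT_exo. For each of the 6 genes no exosome library reached the lowest PBS library, and all 6 kept both calls with any single library left out.

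Of the factors that turn the loaded ring into a moving helicase, 4 of 6 were called lower in each comparison (medians -0.29 and -0.32). Mcm10, which helps to activate the helicase, was at 91.8, 96.1 and 91.8 CPM in PBS, 65.9, 72.1 and 62.4 CPM in WT_exo, and 61.7, 72.6 and 69.9 CPM in EKO_exo. It fell by 0.45 ± 0.065 log2 in EKO_exo and by 0.48 ± 0.065 in WT_exo. Cdc45, which joins the ring in the active helicase, was at 90.7, 94.1 and 90.8 CPM in PBS, 67.1, 78.04 and 70.8 CPM in WT_exo, and 74.99, 73.7 and 77.2 CPM in EKO_exo. Both genes were separated from PBS in both exosome groups, Cdc45 by -0.29 ± 0.059 in EKO_exo and -0.35 ± 0.059 in WT_exo. The calls of the 4 GINS subunits were mixed. Gins2 was lower in both (-0.30 ± 0.079 and -0.35 ± 0.079), which did not hold without EKO_exo 1, EKO_exo 3, PBS 1 or PBS 2 (adjusted p up to 0.129) in EKO_exo and without PBS 1 or WT_exo 1 (adjusted p up to 0.0755) in WT_exo. Of the exon length of Gins2, 67.3% is shared with Gse1 on the other strand, and whether the counts use strand is unknown. Gins3 was called in EKO_exo (-0.44 ± 0.115), not holding without EKO_exo 1, EKO_exo 3, PBS 2 or PBS 3 (adjusted p up to 0.187), and not in WT_exo (-0.29 ± 0.114, adjusted p = 0.171). Gins4 was at 59.8, 59.7 and 55.2 CPM in PBS, 47.9, 46.5 and 53.1 CPM in WT_exo, and 50.4, 52.6 and 52.9 CPM in EKO_exo. It was called in WT_exo (-0.24 ± 0.069), not holding without PBS 1, PBS 2, WT_exo 1 or WT_exo 2 (adjusted p up to 0.203), and not in EKO_exo (-0.16 ± 0.069, adjusted p = 0.198), although no exosome library reached PBS. Gins1, called in neither, was at 27.5, 24.01 and 22.2 CPM in PBS, 20.1, 21.6 and 19.03 CPM in WT_exo, and 17.2, 20.8 and 22.5 CPM in EKO_exo. EKO_exo 3 lay above the lowest PBS library there.

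Of the 9 polymerase and primase genes, 5 were called lower in EKO_exo and 7 in WT_exo (medians -0.23 and -0.22). Pola1, the catalytic subunit of polymerase alpha (ENSMUSG00000006678, chromosome X, 93304767 to 93632155), was at 112, 107 and 103 CPM in PBS, 80.1, 71.98 and 74.1 CPM in WT_exo, and 80.4, 70.8 and 87.4 CPM in EKO_exo. No exosome library came near the PBS range, and the log2 fold change was -0.43 ± 0.064 in EKO_exo and -0.51 ± 0.064 in WT_exo (edgeR adjusted p = 9.24e-05 and 7.2e-06). Its partner subunit Pola2 was at 181, 186 and 178 CPM in PBS, 160.4, 162 and 152 CPM in WT_exo, and 167, 164 and 173 CPM in EKO_exo. Pola2 was also separated from PBS, and was called in WT_exo (-0.20 ± 0.042) and not in EKO_exo (-0.11 ± 0.043, adjusted p = 0.131). The 95% intervals in EKO_exo were -0.56 to -0.30 for Pola1 and -0.20 to -0.03 for Pola2; the difference between the genes was not tested. Pole, the catalytic subunit of polymerase epsilon, fell by 0.38 ± 0.043 log2 in EKO_exo and by 0.37 ± 0.043 in WT_exo, from 258 ± 4.65 CPM in PBS to 198 ± 13.1 and 199 ± 5.09 CPM (mean ± SD, n = 3 each). Prim2, the large primase subunit, fell by 0.31 ± 0.067 and 0.35 ± 0.066. Prim1, the catalytic subunit, fell by 0.29 ± 0.061 in EKO_exo and was not called in WT_exo (-0.19 ± 0.060, adjusted p = 0.0738).

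Pold1, Pold2 and Pold3, genes of polymerase delta, had estimates between -0.21 and -0.11 in EKO_exo. Pold1, its catalytic subunit, was at 288, 288 and 282 CPM in PBS, 254, 257 and 258 CPM in WT_exo, and 248, 257 and 284 CPM in EKO_exo. EKO_exo 3 reached the PBS range, and Pold1 was called in WT_exo (-0.16 ± 0.041) and not in EKO_exo (-0.12 ± 0.041, adjusted p = 0.0948). The call did not hold without PBS 1, PBS 2, WT_exo 1, WT_exo 2 or WT_exo 3 (adjusted p up to 0.096). The accessory subunit Pold2 was at 135, 138 and 135 CPM in PBS, 115, 123 and 115 CPM in WT_exo, and 116, 129.8 and 134 CPM in EKO_exo. WT_exo lay clearly below PBS (-0.22 ± 0.051), a call that did not hold without PBS 2, WT_exo 1 or WT_exo 3 (adjusted p up to 0.0756), while EKO_exo lay closer (-0.11 ± 0.051, adjusted p = 0.271). Still, no EKO_exo library reached the lowest PBS library for Pold2. Pold3 was called in both, at -0.21 ± 0.057 in EKO_exo, not holding without EKO_exo 1, EKO_exo 2, PBS 1 or PBS 2 (adjusted p up to 0.158), and -0.30 ± 0.057 in WT_exo. Pole2, the accessory subunit of polymerase epsilon, was called in neither and was at 36.2, 28.6 and 35.3 CPM in PBS, 31.9, 30.9 and 30.01 CPM in WT_exo, and 31.1, 27.04 and 27.5 CPM in EKO_exo. PBS 2 lay within the EKO_exo range and below all WT_exo libraries, so neither exosome group was separated from PBS.

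Pclaf, whose small protein binds the PCNA clamp (ENSMUSG00000040204, chromosome 9, 65890237 to 65903266), had the largest fall in EKO_exo. It was at 78.1, 78.98 and 70.6 CPM in PBS, 46.5, 47.4 and 41.97 CPM in WT_exo, and 47.3, 48.3 and 47.1 CPM in EKO_exo. All exosome libraries lay far below the lowest PBS library. The log2 fold change was -0.67 ± 0.068 in EKO_exo and -0.75 ± 0.068 in WT_exo, so that CPM fell by 37.3% and fell by 40.3% (edgeR adjusted p = 3.34e-07 and 4.73e-08). Pcna itself, the sliding clamp that tethers polymerases to DNA (ENSMUSG00000027342, chromosome 2, 132249162 to 132253314), was at 252, 259 and 235 CPM in PBS, 210.2, 216 and 216 CPM in WT_exo, and 222, 245 and 221 CPM in EKO_exo. EKO_exo 2 lay within the PBS range, and Pcna was called in WT_exo (-0.21 ± 0.044, adjusted p = 0.00256) and not in EKO_exo (-0.11 ± 0.044, adjusted p = 0.146). The annotation lists pseudogenes of Pcna and of Tyms that could take some of their reads, so the counts of these genes are uncertain.

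**Figure D4:**
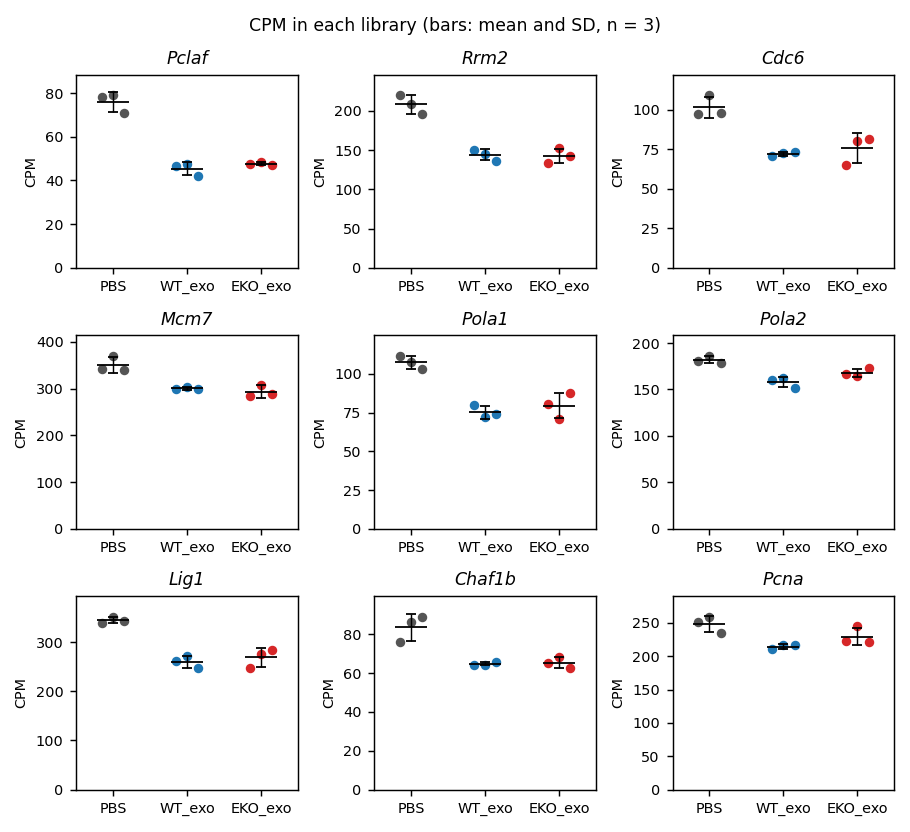
CPM of 9 of the genes in each library by group, with the mean and SD of 3 libraries as bars. Pclaf, Rrm2, Cdc6 and Pola1 are lower in both exosome groups without overlap, while EKO_exo 2 lies within the PBS range for Pcna.

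Replication factor C opens the clamp and places it on DNA. Its large subunit gene, Rfc1, fell by 0.28 ± 0.041 log2 in EKO_exo and by 0.27 ± 0.040 in WT_exo, from 223 ± 4.59 CPM in PBS to 183 ± 0.699 and 185 ± 7.71 CPM (mean ± SD, n = 3 each). Among the small subunits, Rfc4 fell in EKO_exo (-0.44 ± 0.084) and was not called in WT_exo (-0.27 ± 0.083, adjusted p = 0.0613). Parts of the exon length are shared with genes on the other strand: 12.7% for Rfc4 (Eif4a2), 15.1% for Rfc2 (Lat2) and 10.7% for Rfc5 (Wsb2). Rfc5 was called in both, at -0.22 ± 0.063 in EKO_exo, not holding on leaving out any library but EKO_exo 2 (adjusted p up to 0.212), and -0.27 ± 0.063 in WT_exo, not holding without PBS 2 or WT_exo 2 (adjusted p up to 0.0822). Rfc2 was at 132, 122 and 114 CPM in PBS, 103, 106 and 103 CPM in WT_exo, and 105, 112 and 109.97 CPM in EKO_exo. It was called in WT_exo (-0.24 ± 0.052), not holding without PBS 1 (adjusted p up to 0.0846), and missed the threshold in EKO_exo (-0.17 ± 0.053, adjusted p = 0.0575). Rfc3, called in neither, was at 61.4, 61.1 and 54.4 CPM in PBS, 50.2, 51.98 and 52.6 CPM in WT_exo, and 52.7, 51.2 and 50.2 CPM in EKO_exo. Its exosome libraries nevertheless did not overlap with PBS (-0.20 ± 0.067, adjusted p = 0.0893 in EKO_exo; -0.19 ± 0.067, adjusted p = 0.109 in WT_exo). Dscc1 belongs to an alternative loader that works in sister chromatid cohesion. It fell by 0.84 ± 0.133 log2 in WT_exo, the largest estimate of the 46 there, and by 0.51 ± 0.132 in EKO_exo, a call that did not hold without EKO_exo 1 or PBS 1 (adjusted p up to 0.128). Its levels were the lowest of all, at 18.5, 16.03 and 16.2 CPM in PBS, 7.99, 10.03 and 10.4 CPM in WT_exo, and 10.5, 12.2 and 12.8 CPM in EKO_exo.

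Among genes for single-stranded DNA and Okazaki fragments, 2 of 4 were called lower in EKO_exo and 3 of 4 in WT_exo. Lig1, the ligase that seals Okazaki fragments (ENSMUSG00000056394, chromosome 7, 13277283 to 13311433), was at 340.4, 352 and 343 CPM in PBS, 261, 273 and 248 CPM in WT_exo, and 248, 277 and 285 CPM in EKO_exo. Every exosome library was well below every PBS library, with log2 fold changes of -0.35 ± 0.044 in EKO_exo and -0.40 ± 0.044 in WT_exo (edgeR adjusted p = 6.04e-06 and 5.6e-07). Rpa1, the large subunit of the protein that coats single-stranded DNA, fell by 0.24 ± 0.037 and 0.21 ± 0.037. Rpa2, the middle subunit, was called in neither and was at 92.5, 90.7 and 87.3 CPM in PBS, 88.6, 88.3 and 82.9 CPM in WT_exo, and 74.2, 83.2 and 86.98 CPM in EKO_exo. WT_exo overlapped with PBS for Rpa2 (-0.06 ± 0.059, adjusted p = 0.737), and EKO_exo lay just below PBS (-0.15 ± 0.059, adjusted p = 0.18). Fen1, the nuclease that trims Okazaki flaps, was at 186, 191 and 187 CPM in PBS, 167, 159 and 177 CPM in WT_exo, and 176, 167 and 184 CPM in EKO_exo. It was called in WT_exo (-0.17 ± 0.045), not holding without PBS 1, PBS 2, PBS 3, WT_exo 1 or WT_exo 2 (adjusted p up to 0.207), and not in EKO_exo (-0.10 ± 0.045, adjusted p = 0.241). No exosome library reached the lowest PBS library for Fen1. Of the exon length of Fen1, 78.8% is shared with the antisense transcript Gm10143.

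Chaf1a and Chaf1b, for subunits of the CAF-1 chaperone that places new histones behind the fork, were lower in both groups. Chaf1b was at 75.8, 86.2 and 88.9 CPM in PBS, 64.3, 64.4 and 65.8 CPM in WT_exo, and 65.1, 68.2 and 62.7 CPM in EKO_exo. Chaf1a was at 175, 169 and 166 CPM in PBS, 143, 142 and 139 CPM in WT_exo, and 139, 141 and 147 CPM in EKO_exo. The exosome groups lay close together, below all PBS libraries. The log2 fold changes in EKO_exo and WT_exo were -0.36 ± 0.063 and -0.37 ± 0.063 for Chaf1b and -0.26 ± 0.043 and -0.27 ± 0.043 for Chaf1a. Of the exon length of Chaf1a, 52.5% is shared with Ubxn6 on the other strand.

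The genes of nucleotide synthesis had the lowest subgroup median, -0.42 log2 in EKO_exo and -0.48 in WT_exo, and all 5 were called lower in both. Rrm2, the regulated small subunit of ribonucleotide reductase (ENSMUSG00000020649, chromosome 12, 24708241 to 24714146), was at 219.9, 209 and 196 CPM in PBS, 149.99, 145 and 136 CPM in WT_exo, and 133, 152 and 142 CPM in EKO_exo. Rrm1, the large subunit, was at 410.3, 399 and 388 CPM in PBS, 318, 302 and 304 CPM in WT_exo, and 289, 292 and 328 CPM in EKO_exo. Neither overlapped with PBS in any exosome library. Rrm2 was at -0.55 ± 0.051 log2 in EKO_exo and -0.53 ± 0.051 in WT_exo (edgeR adjusted p = 7.69e-08 and 1.06e-07), and Rrm1 at -0.40 ± 0.042 and -0.37 ± 0.042. Tyms, which makes thymidylate, fell by 0.48 ± 0.071 and 0.48 ± 0.071. Tk1, the thymidine kinase of the salvage pathway, fell by 0.42 ± 0.085 in EKO_exo and by 0.63 ± 0.085 in WT_exo, from 48.7 ± 2.19 CPM in PBS to 36.4 ± 4.64 and 31.6 ± 1.18 CPM (mean ± SD, n = 3 each). Dut, which removes dUTP from the nucleotide pool, shifted least of the 5. It was at -0.18 ± 0.048 in EKO_exo, where it overlapped with PBS and did not hold without EKO_exo 1, EKO_exo 2, PBS 1 or PBS 2 (adjusted p up to 0.24), and at -0.22 ± 0.048 in WT_exo, not holding without PBS 1 (adjusted p up to 0.0697).

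Timeless and Tipin, whose proteins form a complex that stabilizes the moving fork, were lower in both groups. Tipin was at 85.7, 90.1 and 82.9 CPM in PBS, 73.8, 72.1 and 67.2 CPM in WT_exo, and 67.7, 75.2 and 73.3 CPM in EKO_exo. Timeless was at 164, 171 and 172 CPM in PBS, 150.2, 149 and 145 CPM in WT_exo, and 131, 153 and 142 CPM in EKO_exo. Neither gene overlapped between PBS and an exosome group. Tipin was at -0.26 ± 0.060 in EKO_exo, not holding without EKO_exo 1 or PBS 2 (adjusted p up to 0.0852), and -0.28 ± 0.060 in WT_exo, not holding without PBS 2 or WT_exo 3 (adjusted p up to 0.0507). Timeless was at -0.25 ± 0.049 in EKO_exo and -0.19 ± 0.048 in WT_exo, the second not holding without PBS 2, PBS 3, WT_exo 1, WT_exo 2 or WT_exo 3 (adjusted p up to 0.107).

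The summed CPM of the 46 genes and the share of each subgroup in it were compared over libraries. The sum was 8761, 8793 and 8456 CPM in the PBS libraries, 7245, 7295 and 7187 CPM in WT_exo and 6975, 7446 and 7560 CPM in EKO_exo. Nucleotide synthesis genes made up 10.5% to 11.01% of it in PBS, 9.56% to 9.91% in WT_exo and 9.47% to 9.89% in EKO_exo. MCM genes made up 39.7% to 39.8%, 40.9% to 41.6% and 40.8% to 41.2% in the same order. Helicase activation genes made up 3.93% to 3.98%, 3.52% to 3.89% and 3.69% to 3.80%. These 3 of the 9 subgroups are given because neither exosome group overlapped with PBS. The other 6 overlapped with PBS in at least 1 exosome group, and no test was run on the shares. Shares are parts of the same sum, so a lower share of some subgroups raises that of others. The MCM sum itself was lower, at a mean of 3443 CPM in PBS, 2983 CPM in WT_exo and 3001 CPM in EKO_exo.

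Between genes, levels were compared in CPM per kilobase of annotated exon. In PBS the highest were Mcm3, Mcm4, Mcm6 and Mcm5, at 172, 161, 147 and 142 CPM per kilobase. Pcna followed at 104, and the remaining ring genes, Mcm2 and Mcm7, were at 88.6 and 79.2 CPM per kilobase. Of the catalytic polymerase subunits, Pold1 was at 58.8, Pole at 23.1 and Pola1 at 12.2 CPM per kilobase. The lowest of the 46 were Dscc1 at 3.82, Gins3 at 8.61 and Tk1 at 9.37 CPM per kilobase. The exon length used joins the exons of all annotated transcripts of a gene. It can exceed the length of the mRNA present in these cells, which lowers the value. The place of a gene in this order, Tk1 included, therefore depends on the annotation.

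Whether exosomes from ApoE-deficient mice changed these mRNAs differently from those of wild-type mice was asked by comparing the exosome groups directly. None of the 46 genes was called (edgeR, smallest adjusted p = 0.65), and none with DESeq2. Of all genes tested, 0.0341% were called, 0.00681% lower and 0.0272% higher in EKO_exo. At an unadjusted p under 0.05 there were 5 of 46, where 7.08% of all genes tested passed. These were Pola2 (0.09 ± 0.043), Pold2 (0.11 ± 0.052), Pcna (0.10 ± 0.044), Tk1 (0.20 ± 0.086) and Dscc1 (0.32 ± 0.135), with the higher level in EKO_exo. In CPM, every EKO_exo library lay above every WT_exo library for Pola2, Pcna and Dscc1, 3 of 46 genes where 5.88% of all genes tested did so. They lay below for Rfc4 alone (-0.17 ± 0.085), where 5.97% of all genes tested did so. For the MCM genes the estimates were -0.04 to 0.07 log2, and for Pclaf the estimate was 0.07 ± 0.069. The 95% interval of the difference lay within 0.2 log2 of 0 for 29 of the 46 genes. Over all 46 the intervals reached from -0.38 (Gins3) to 0.60 (Dscc1).

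**Figure D5:**
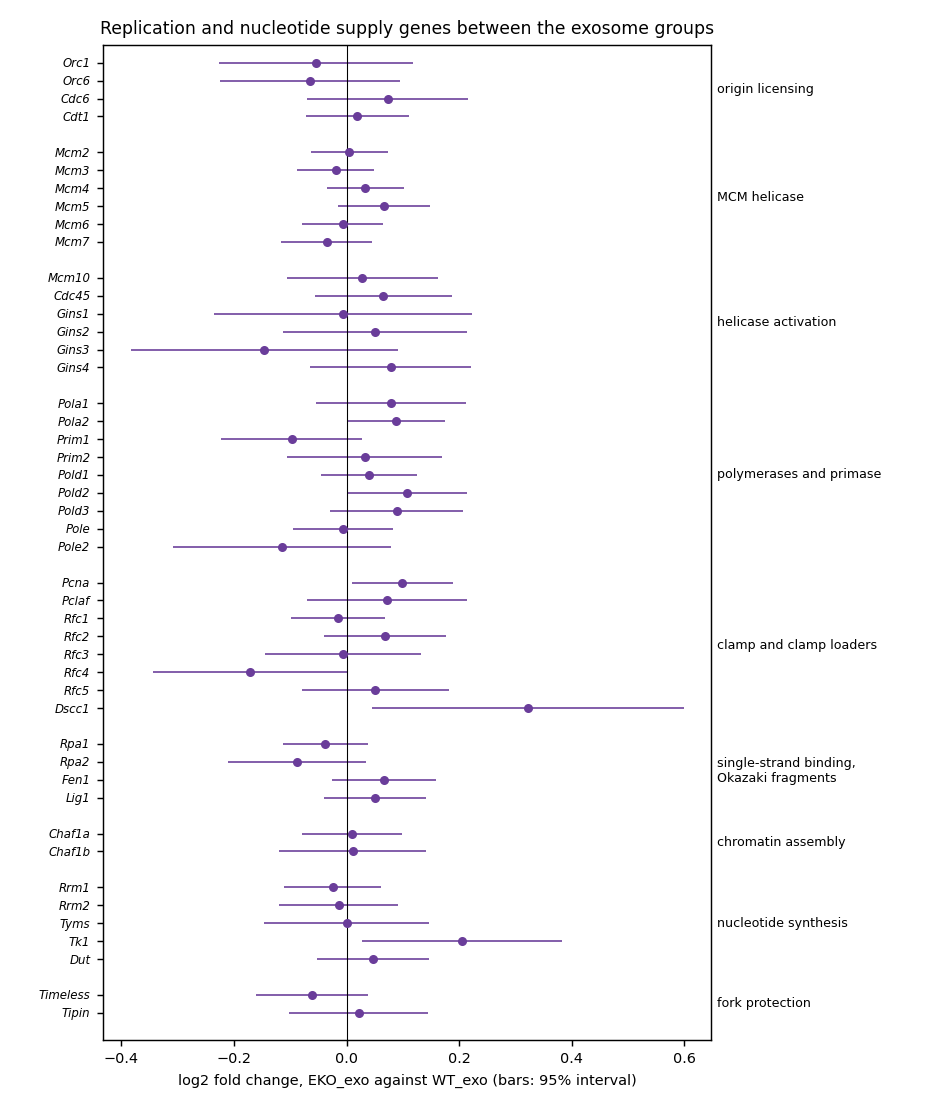
Log2 fold change of EKO_exo against WT_exo (x axis) for each of the 46 genes, with 95% intervals as bars. The intervals of 29 genes lie within 0.2 of 0, and that of Dscc1 reaches 0.60.

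A further list of 78 genes of the same pathways was described in the same way. In EKO_exo 26 of 78 fell and 1 rose (median -0.12 log2), where 2.87% of all genes tested fell and 2.21% rose. In WT_exo 23 fell and 1 rose (median -0.11), where 3.14% fell and 1.83% rose. None was called between the exosome groups, where 9 of 78 had an unadjusted p under 0.05, as did 7.08% of all genes tested. Of 17 origin and helicase factors, 5 fell in EKO_exo and 4 in WT_exo. Clspn, a checkpoint mediator that travels with the fork, fell by 0.42 ± 0.055 and 0.53 ± 0.055 log2 in EKO_exo and WT_exo. Topbp1, which helps origins to fire, fell by 0.17 ± 0.035 and 0.15 ± 0.035, the second not holding without PBS 1, PBS 2 or WT_exo 2 (adjusted p up to 0.0617). Mcm8, a relative of the ring genes, was at -0.44 ± 0.114 in EKO_exo, not holding without EKO_exo 1, EKO_exo 3, PBS 1 or PBS 2 (adjusted p up to 0.131), and was not called in WT_exo (-0.33 ± 0.113, adjusted p = 0.103). Of 13 polymerase, clamp and Okazaki factors, 4 fell in each comparison. Top2a, the topoisomerase that untangles copied DNA, fell by 0.61 ± 0.047 and 0.60 ± 0.047. Atad5, which unloads PCNA, fell by 0.35 ± 0.058 and 0.24 ± 0.057, the second not holding without PBS 1, PBS 3, WT_exo 2 or WT_exo 3 (adjusted p up to 0.099). Dna2, a nuclease and helicase, fell by 0.32 ± 0.068 and 0.23 ± 0.068, the second not holding without EKO_exo 2, PBS 1, PBS 2, PBS 3, WT_exo 2 or WT_exo 3 (adjusted p up to 0.294).

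Of 8 genes that bring histones to the fork, 6 fell in EKO_exo and 7 in WT_exo. Ssrp1, a subunit of the chaperone FACT, fell by 0.18 ± 0.032 and 0.22 ± 0.032, the chaperone gene Asf1b by 0.40 ± 0.072 and 0.37 ± 0.072, and the histone acetyltransferase gene Hat1 by 0.24 ± 0.047 and 0.25 ± 0.046. Of 12 other deoxynucleotide enzymes, 3 fell and 1 rose in each comparison. Samhd1, whose product breaks down deoxynucleotides, was the gene that rose. It was at 1588, 1571 and 1675 CPM in PBS, 1748, 1773 and 1737 CPM in WT_exo, and 1874, 1763 and 1749.7 CPM in EKO_exo. All exosome libraries lay above PBS, with log2 fold changes of 0.16 ± 0.028 in EKO_exo (edgeR adjusted p = 0.000588) and 0.12 ± 0.028 in WT_exo (0.00686), the second not holding without PBS 2 or WT_exo 2 (adjusted p up to 0.0789). Dctd, the dCMP deaminase, was at -0.24 ± 0.067 in EKO_exo, not holding without EKO_exo 1, EKO_exo 3, PBS 1, PBS 2 or PBS 3 (adjusted p up to 0.153), and was not called in WT_exo (-0.07 ± 0.066, adjusted p = 0.708).

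Of 15 genes of de novo pyrimidine and purine synthesis, 4 fell in EKO_exo and 2 in WT_exo (medians -0.09 and -0.07 log2). The purine gene Pfas fell by 0.23 ± 0.042 and 0.15 ± 0.041, the second not holding without PBS 2, PBS 3, WT_exo 1, WT_exo 2 or WT_exo 3 (adjusted p up to 0.159). Gmps, which makes GMP, was at -0.21 ± 0.048 in EKO_exo, not holding without EKO_exo 1, PBS 1 or PBS 2 (adjusted p up to 0.0731), and Cad, which starts pyrimidine synthesis, at -0.11 ± 0.029, not holding without EKO_exo 1, PBS 1 or PBS 2 (adjusted p up to 0.0942). Neither was called in WT_exo (-0.06 ± 0.048, adjusted p = 0.618; -0.07 ± 0.029, adjusted p = 0.245). In the E2F and RB family, 4 of 13 genes fell in EKO_exo and 3 in WT_exo. E2f8, a repressor of the family, was at 55.6, 58.9 and 54.2 CPM in PBS, 34.7, 43.3 and 33.7 CPM in WT_exo, and 34.98, 37.2 and 43.4 CPM in EKO_exo. It was below PBS in every exosome library and fell by 0.55 ± 0.090 log2 in EKO_exo and by 0.60 ± 0.090 in WT_exo. E2f2, an activator, fell by 0.37 ± 0.073 and 0.47 ± 0.073. Tfdp1, the partner with which E2F proteins bind DNA, was at -0.23 ± 0.043 in EKO_exo and was not called in WT_exo (-0.11 ± 0.043, adjusted p = 0.156).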

How the data were processed

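The deposited values are whole-number counts per gene for 9 libraries, which the authors did not normalize. The submitters' processing notes name STAR 2.7.5c and build GRCm38; counting tool, strand setting and annotation were not given in the sources used here. Sample titles gave groups and replicate numbers. The series text calls the replicates biological, but nothing says that they came from different mice, and p-values may then reflect only technical spread. Symbols, coordinates and exon lengths were taken by identifier from GENCODE M21 (GRCm38); for Chtf8 the identifier with more counts was used.

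The count model was fitted with edgeR 4.0.16 in R 4.3.3: filterByExpr (minimum count 10, minimum total 15) kept 14684 genes, libraries were scaled by TMM, and a model of 3 groups over all 9 libraries was tested by quasi-likelihood, two-sided. The model takes the spread of a gene as the same in every group. Pairs of EKO_exo libraries differed more (chi-square of counts per degree of freedom 6.59 to 9.08) than pairs in PBS (5.02 to 5.85) or WT_exo (5.09 to 5.36). Standard errors may thus be too small for EKO_exo and too large for WT_exo. CPM use the TMM-scaled library size. Errors of log2 fold changes are standard errors, and 95% intervals use 6 residual and 21.1 prior degrees of freedom. The edgeR calls were tried on simulated data, with 50 genes per comparison set to differ at each fold. Of those set to differ 1.25-fold, the calls caught 66% in EKO_exo and 70% in WT_exo. Between the exosome groups they caught 66%. At 1.5-fold these shares were 96%, 84% and 82%, in the same order. False calls made up 4.23%, 1.12% and 2.81% of all calls. Alternatives were other scalings, DESeq2 1.42.0, other filters, a replicate block, fits of only the groups compared, and each library left out.

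The 46 genes, the further lists and the alternatives were chosen with earlier results of these data known. Values in every library are given for the most abundant gene and the gene with the largest shift in EKO_exo of each subgroup and for genes not called in EKO_exo. Each further list names the 3 genes with the smallest p in EKO_exo and any called against its list. A gene that this rule names is not reported here. Dscc1 and E2f8 values by library, and other genes named for a small count, were chosen after their values were seen.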

Additional observations from a re-analysis of the deposited data

How the results depend on the processing

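None of the 46 genes was called between EKO_exo and WT_exo in any setting run. Against PBS, all 46 estimates stayed negative in every setting run. Between the exosome groups, where the estimates lie near 0, signs changed for up to 9 of the 46 genes with a single library left out (without EKO_exo 2), for 1 without a filter and for 16 with only EKO_exo 2 kept. The number called lower in EKO_exo and WT_exo was 37 and 40 with DESeq2, 36 and 40 without a filter, 38 and 41 among genes averaging at least 5 CPM, and 32 and 41 in fits of only the groups compared. Samples that share a replicate number did not deviate together (correlations -0.020 to 0.024), nor did samples with different numbers (-0.026 to 0.025). This check cannot show whether the cultures were paired, which no label states. With the replicate block 33 and 37 genes were called lower, and 1 gene of all tested was called between the exosome groups. Of all genes tested, those called between the exosome groups were 5, and 32 with DESeq2, 28 without a filter and 9 among genes averaging at least 5 CPM. Among the further 78 genes, DESeq2 called 2 higher in EKO_exo.

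Leaving out both EKO_exo 1 and EKO_exo 3, which was chosen after seeing the data, left 18 of the 46 genes lower in EKO_exo (median -0.2208), 9 of the further genes lower, 249 of all genes called against PBS (746 with all libraries) and 0 against WT_exo; the remaining EKO_exo library is then assumed to vary like the other groups. With single libraries left out, genes of the 46 called lower were 25 to 34 in EKO_exo and 29 to 41 in WT_exo. Of the further genes, 14 to 24 were lower in EKO_exo (26 with all libraries; 17 without PBS 1 and 14 without PBS 2). In WT_exo 12 to 27 were lower (23 with all; 13 without PBS 1 or PBS 2, 12 without WT_exo 2 or WT_exo 3) and 0 to 1 higher. Over all genes, 375 to 687 were called in EKO_exo (399 without PBS 1, 375 without PBS 2) and 399 to 870 in WT_exo (730 with all; 410 and 399 without PBS 1 and PBS 2, and 441, 430 and 432 without WT_exo 1, 2 and 3). Between the exosome groups, 0 to 6 were called and the median of the 46 genes was -0.0039 to 0.0601. The cause was not tested; each such fit has fewer samples. With 3 libraries a group, the estimates of Dscc1 and Gins3 had the widest 95% intervals of the 46 genes.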
